A study of Mus musculus with 2 samples.

Results

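The myeloid C-type lectin receptors described here are 9 genes, namely *Clec4a1*, *Clec4a2*, *Clec4a3*, *Clec4d*, *Clec4e*, *Clec4n*, *Clec5a*, *Clec7a* and *Clec12a*. The rule that picks them uses gene names and no measured value, although the set was proposed with earlier results of these arrays known. Every array probe whose accession matched one of the 9 symbols in a RefSeq gene table was used. A probe was found for 8 of the 9 genes, out of 20655 genes named on the array in all. No accession matched *Clec7a*, and it was not analysed here. RAW264.7, a macrophage line from a leukemia that Abelson virus induced in an adult male BALB/c mouse, was cultured for 24 h in DMEM with heat-inactivated serum. One dish received vehicle control and the other IR-61, a near-infrared heptamethine cyanine dye that gathers in mitochondria, at 10 μM. The dose is from a figure legend and not from the sample labels. RNA from each was labelled with Cy3 and hybridized to its own Agilent one-colour mouse array, to ask how the dye affects macrophage gene expression. Which array is vehicle and which is IR-61 rests on the sample labels alone, because the names of both scanner files mention the dye, and the sign of every difference rests on it too. With 1 array per condition no difference below has a replicate array, and no test or *p*-value is given. The paper also measured pro-inflammatory genes such as *Tnf* by qPCR, which is not used here.

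C-type lectin receptors are membrane proteins that bind sugars and lipids of fungi and mycobacteria, or molecules that dying cells release. The activating members Mincle (*Clec4e*), Mcl (*Clec4d*), Dectin-2 (*Clec4n*) and Clec5a have no signalling tail of their own and signal through the ITAM motif of a partner adaptor, Fcer1g or Tyrobp, whereas Dectin-1 (*Clec7a*) carries an ITAM-like motif itself. From there the kinase Syk and the Card9 complex lead to NF-κB and to cytokines. The inhibitory members Clec12a and Dcir (*Clec4a2*) carry an ITIM, which recruits phosphatases such as Ptpn6. All 9 genes lie on mouse chromosome 6, most of them in a pair of gene clusters.

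The stretch of 250 bases before the start of *Clec4e*, *Clec4d* and *Clec12a* is shown because *Clec4e* and *Clec4d* are next to each other in the genome and differed in their response, and *Clec12a* had the largest positive difference of the 8 genes. The sequences are from RefSeq on GRCm38.p6, at chr6:123289872-123290121 on the minus strand for *Clec4e*, chr6:123261857-123262106 on the plus strand for *Clec4d* and chr6:129349994-129350243 on the plus strand for *Clec12a*, and each is written 5′ to 3′ towards its gene. Capitals mark matches to the C/EBP motif TTNNGNAA or the AP-1 motif TGANTCA on either strand.
Clec4e: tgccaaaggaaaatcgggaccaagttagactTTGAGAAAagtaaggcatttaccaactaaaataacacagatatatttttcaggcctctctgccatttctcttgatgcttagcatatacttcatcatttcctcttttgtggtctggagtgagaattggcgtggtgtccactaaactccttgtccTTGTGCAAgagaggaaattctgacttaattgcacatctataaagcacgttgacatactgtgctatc
Clec4d: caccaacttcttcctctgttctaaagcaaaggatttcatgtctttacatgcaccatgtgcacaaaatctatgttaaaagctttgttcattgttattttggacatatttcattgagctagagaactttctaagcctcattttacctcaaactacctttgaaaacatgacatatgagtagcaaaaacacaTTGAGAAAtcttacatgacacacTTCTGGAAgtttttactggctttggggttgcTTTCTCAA
Clec12a: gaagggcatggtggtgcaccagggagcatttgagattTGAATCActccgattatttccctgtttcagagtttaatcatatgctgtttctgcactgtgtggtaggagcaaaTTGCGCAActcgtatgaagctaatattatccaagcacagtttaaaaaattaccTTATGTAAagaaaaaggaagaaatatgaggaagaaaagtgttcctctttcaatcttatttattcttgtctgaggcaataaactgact
The *Clec4e* stretch held the C/EBP letters 219 to 212 and 66 to 59 bases before the start. The *Clec4d* stretch held them 62 to 55, 39 to 32 and 8 to 1 bases before the start, the last on the opposite strand. In the *Clec12a* stretch the AP-1 letters lay 213 to 207 and the C/EBP letters 140 to 133 and 87 to 80 bases before the start. Motifs for NF-κB and for PU.1 (AGGAAGT) were searched too and had no match in these 3 stretches. Among 32851 mouse promoters of the same length, 36.8% held the C/EBP motif, 6.75% the AP-1 motif, 7.69% the PU.1 motif and 7.25% the NF-κB motif. The C/EBP letters also occurred before *Clec4a2* and *Clec5a*, and none of the 4 motifs before *Clec4a1*, *Clec4a3* or *Clec7a*. *Clec4n* has no entry in the table. A match is a description of letters and not a binding site.

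Values are the processed signal of a probe, a brightness in arbitrary units after background subtraction. Differences are IR-61 minus vehicle on the log2 scale, after the 75th percentile of its array, 10.30 for vehicle and 10.79 for IR-61, was subtracted from each value. The IR-61 array was the brighter one, and without this scaling the median difference of all genes was 0.59 in place of 0.10. Both headers give the same scan. The lowest signal among probes well above background was 12.8 for vehicle and 15.0 for IR-61, and 16885 genes were measured on both arrays. The spread between spots of the 399 probes printed 10 times gave the error within an array. Its SD at log2 signals of 10 or more was 0.0703 for vehicle and 0.0630 for IR-61, at 6 to 10 it was 0.178 and 0.144, and under 6 it was 0.347 and 0.296. This error leaves out the spread between cultures, which 1 dish per condition cannot show. Each receptor gene was read by 1 probe printed once.

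All 8 receptor genes were well above background on both arrays. With IR-61, *Clec4e* was the 1 gene lower by 2-fold or more, against 1.39% of all measured genes. *Clec12a* and *Clec4a1* were the 2 genes higher by 2-fold or more, against 1.99% of all measured genes, and in either direction 3 of the 8 passed the limit, against 3.38%. The other 5 genes stayed within 2-fold. The 8 differences ranged from −1.87 to 1.32 with a median of 0.27, beside a median of 0.10 over all genes, and 5 of the 8 were above 0, as were 61.2% of all genes. In the plot of differences by mean signal, *Clec4e* sits below and *Clec4a1* above a band in which most genes of similar signal lie. At log2 signals of 10 or more, 1.09% of the genes were lower and 1.03% higher by 2-fold or more. At 6 to 10, where *Clec12a* lies, these shares were 1.78% and 2.38%, and under 6 they were 1.29% and 3.62%.

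**Figure D1:**
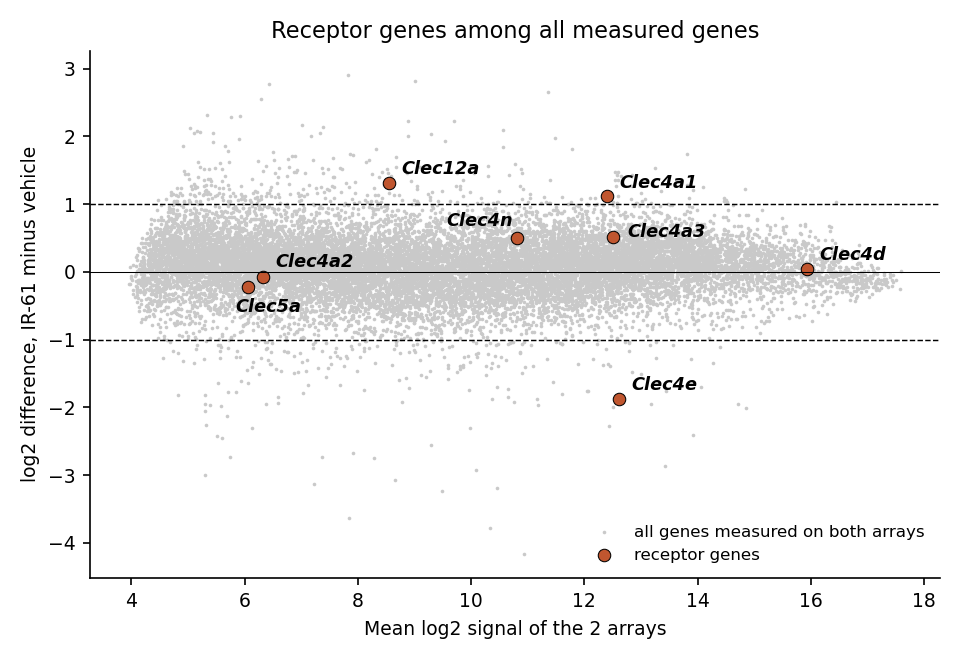
Log2 difference (IR-61 minus vehicle, scaled by the 75th percentile) against the mean log2 signal of the 2 arrays for the 16885 genes measured on both. Grey points are all genes, filled circles the 8 receptor genes, and dashed lines the 2-fold limits; *Clec4e* lies below the lower line and *Clec12a* and *Clec4a1* above the upper one.

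Among the activating receptors, *Clec4e* stood apart. Mincle, its product, binds the mycobacterial cord factor and a protein set free by dead cells. The signal of *Clec4e* was 10067 with vehicle and 3853 with IR-61. The brighter IR-61 array thus gave the dimmer spot, and after scaling the log2 difference was −1.87, a 3.67-fold lower value. The SD of a difference expected from spots of this brightness was 0.0944, and the error that the scanner software assigns to the difference was 0.204. Counted from the most negative difference, *Clec4e* took rank 39 of 16885 genes.

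*Clec4d* encodes Mcl, which pairs with Mincle at the cell surface. Its signal was 51806 with vehicle and 75150 with IR-61. After scaling the log2 difference was 0.05, which is smaller than the SD of 0.0944 between spots. The neighbours *Clec4d* and *Clec4e* thus gave different values, and both of the stretches shown above hold C/EBP letters.

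*Clec4n* encodes Dectin-2, a receptor for fungal mannans. Its signal was 1274 with vehicle and 2519 with IR-61, and the log2 difference was 0.50, a 1.41-fold higher value. This exceeded the SD between spots of 0.0944 and stayed within 2-fold. *Clec5a*, whose product signals through Tyrobp and Hcst and is known as a receptor for dengue virus, had a signal of 60.9 with vehicle and 73.5 with IR-61. Its log2 difference was −0.22 against an SD between spots of 0.376. Both values of *Clec5a* were under 5 times the lowest signal well above background, at 4.76 and 4.89 times.

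Of the inhibitory receptors, *Clec12a* was higher with IR-61 and *Clec4a2* was not separated from 0. Clec12a is known to bind uric acid crystals and to restrain Syk-dependent activation. The signal of *Clec12a* was 201 with vehicle and 703 with IR-61. The log2 difference was 1.32, a 2.49-fold higher value, with an SD between spots of 0.229 and a software error of 0.205. Counted from the most positive difference it took rank 114 of 16885 genes. *Clec4a2* had a signal of 69.4 with vehicle and 92.2 with IR-61, and its log2 difference of −0.08 was smaller than the SD between spots of 0.229.

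*Clec4a1* and *Clec4a3*, close relatives of *Clec4a2* in the Dcir group, were both higher with IR-61. The signal of *Clec4a1* was 3089 with vehicle and 9420 with IR-61, and the log2 difference was 1.12, a 2.17-fold higher value and rank 222 from the most positive difference. The signal of *Clec4a3* was 4088 with vehicle and 8196 with IR-61, and the log2 difference was 0.52, a 1.43-fold higher value. Both differences exceeded the SD between spots of 0.0944 and the software error of 0.204. Transcripts of this gene group are alike in sequence, and whether a probe also read a relative was not tested.

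**Figure D2:**
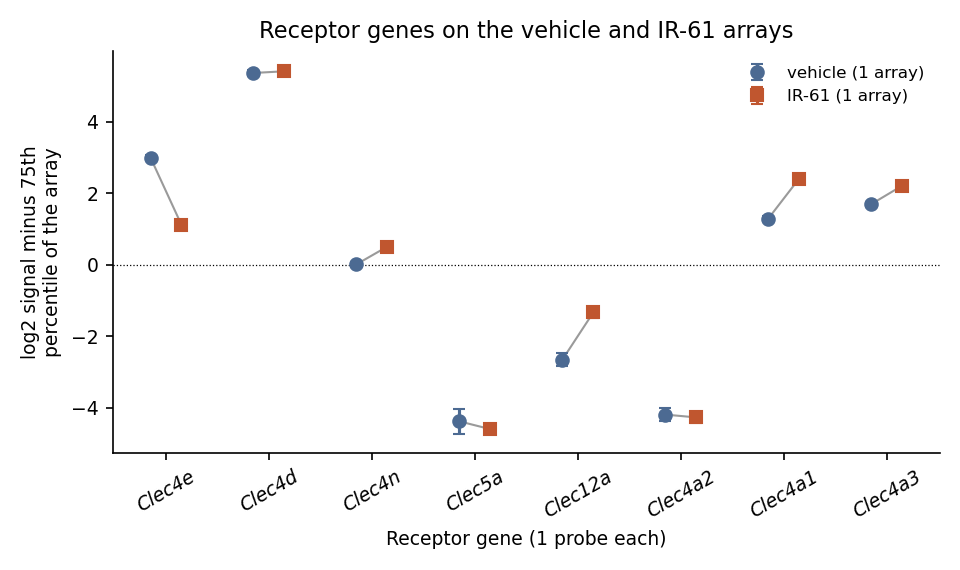
Scaled log2 signal (log2 signal minus the 75th percentile of the array) of the 8 receptor genes with vehicle (circles) and IR-61 (squares), 1 array each; bars are the SD between spots at that signal, often smaller than the symbol, and lines join the values of a gene. *Clec4e* goes from 2.99 to 1.12, whereas *Clec12a* goes from −2.65 to −1.33 and *Clec4a1* from 1.29 to 2.41.

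The direction and the side of the 2-fold limit held for *Clec4e*, *Clec4a1* and *Clec12a* in each of 12 other ways of processing the arrays. Among these, the mean over probes and the other filters could not change the values, since each gene had 1 probe, and they add no support. *Clec4e* lay between −1.96 and −1.39, *Clec4a1* between 1.04 and 1.61, and *Clec12a* between 1.02 and 1.81. The lowest value of *Clec12a* came with normexp background correction, and the highest values of all 8 genes came without scaling. *Clec4a3* was at 0.43 or more and passed the 2-fold limit in 1 of the 12 settings, the one without scaling. *Clec4n* lay between 0.38 and 0.98. The small differences of *Clec4d*, *Clec4a2* and *Clec5a* did not keep their sign in every setting. *Clec4d* was −0.03 with scaling by the median. *Clec4a2* and *Clec5a* were above 0 only without scaling, at 0.41 and 0.27, where the median of all genes was 0.59. In the log2 table that the authors deposited, the differences of *Clec4e*, *Clec12a* and *Clec4a1* were −1.93, 1.33 and 1.06.

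**Figure D3:**
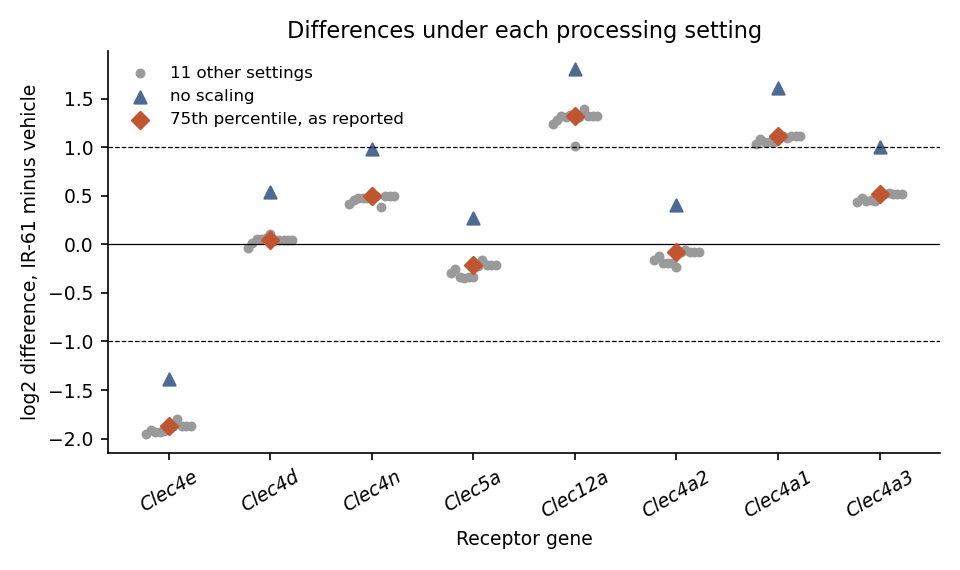
Log2 difference (IR-61 minus vehicle) of each receptor gene as reported (diamonds), without scaling (triangles) and in the 11 other settings (grey points), with dashed lines at the 2-fold limits. Most grey points stay near the reported value, but *Clec12a* falls to 1.02 with normexp and *Clec4n* to 0.38 with the positional trend removed. Without scaling every gene sits higher, *Clec4e* at −1.39 and *Clec12a* at 1.81.

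Along the Dectin-2 cluster the difference was not uniform. All 9 genes of the cluster were measured on both arrays, with a median of 0.23. Of the 9, 7 were above 0, beside 61.2% of all measured genes. In gene order the differences were 1.12 for *Clec4a1* and 0.52 for *Clec4a3*, then 0.93 for *Clec4a4* and 0.18 for *Clec4b1*, then −0.08 for *Clec4a2* and 0.23 for *Clec4b2*, and at the far end 0.50 for *Clec4n*, 0.05 for *Clec4d* and −1.87 for *Clec4e*. The one large negative value lay at one end and the one past 2-fold upwards at the other. The cluster was taken here as the stretch from *Clec4a1* to *Clec4e*, so these genes set its ends, and genes beyond them were not included. *Clec4a4*, which encodes the second ITIM-bearing Dcir, had a signal of 59.1 with vehicle and 158 with IR-61, and the SD of its difference between spots was 0.376.

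In the Dectin-1 cluster 5 of 9 genes were measured on both arrays, and 4 of these were above 0, beside 61.2% of all measured genes. This cluster was taken as the stretch from *Clec12a* to *Gabarapl1*. The platelet receptor gene *Clec1b*, near *Clec12a*, had a log2 difference of 0.92 by its brightest probe. Its other 2 probes gave 0.08 and −0.16, so its probes disagreed. *Clec9a*, known from dendritic cells that take up dead cells, had a signal of 12.1 with vehicle, not well above background, and 45.5 with IR-61, and was at least 2.53-fold higher. *Clec1a* had a log2 difference of 0.62 and an SD between spots of 0.456. Neither array had *Clec12b* or *Tmem52b* well above background.

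*Olr1*, the gene of the oxidized lipoprotein receptor Lox-1, had the only large negative value of this cluster. Its signal was 3575 with vehicle and 547 with IR-61, 9.18-fold lower after scaling at a log2 difference of −3.20. *Gabarapl1*, an autophagy gene beyond *Tmem52b*, had a difference of 0.17. Including *Clec2d*, at −0.05, the neighbours of the receptor genes had a median of 0.20 over 8 measured genes. Of these 8, 1 was lower and 0 higher by 2-fold or more, beside 1.39% and 1.99% of all measured genes. Without scaling the median was 0.69 with 3 higher, and with the positional trend removed 1 was higher.

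**Figure D4:**
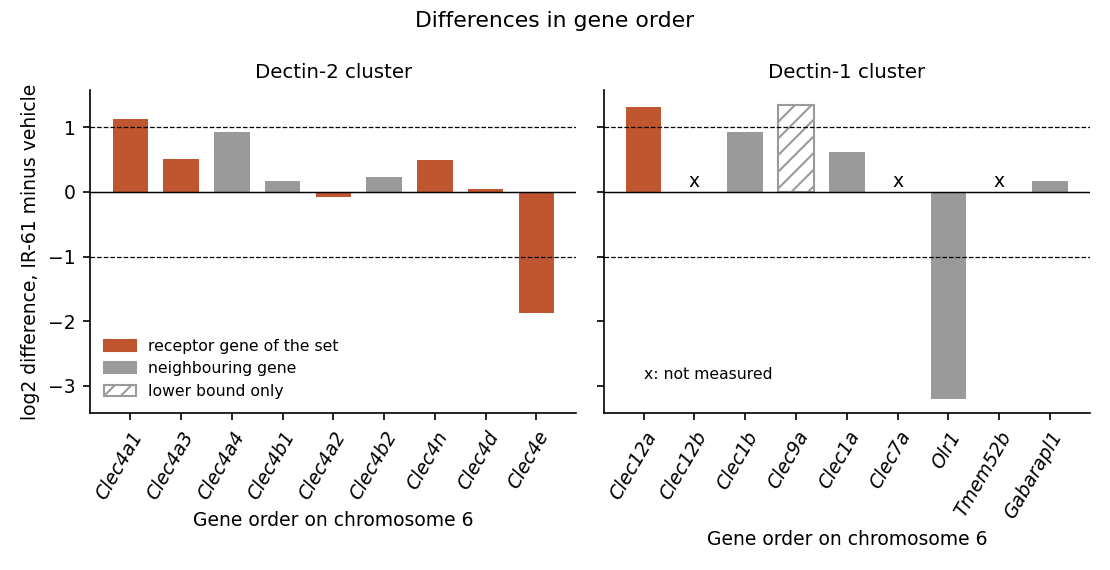
Log2 difference (IR-61 minus vehicle) of the genes of the Dectin-2 and Dectin-1 clusters in their order on chromosome 6, with dashed lines at the 2-fold limits; the hatched bar is a lower bound and x marks a gene without a value. The bars of *Clec4e*, at −1.87, and *Olr1*, at −3.20, point down among neighbours that are mostly above 0, as 61.2% of all measured genes were.

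C-type lectins and lectin-like receptors outside the set had a median difference of 0.08 over 24 measured genes, and this median was slightly below 0 with scaling by the median, quantile normalization, loess, normexp and the deposited values. Of the 24, 3 were lower and 1 higher by 2-fold or more, beside 1.39% and 1.99% of all measured genes. With normexp 1 of the 24 was lower, and with the positional trend removed or the probes of each gene averaged 2 were. With a filter at 4 times the lowest signal 2 of 18 were lower. With no filter on dim probes 4 of 29 were lower and 3 higher. Without scaling 1 of the 24 was lower and 5 were higher, with a median of 0.57. *Cd69*, an early activation marker, had a signal of 360 with vehicle and 75.6 with IR-61, a difference of −2.74. *Ly75*, an endocytic receptor of dendritic cells, had a difference of −1.03, and *Mrc2*, a collagen receptor, of −1.08, but the second probe of *Mrc2* gave 0.40 and both were dim. *Cd302*, a receptor of phagocytes, had a signal of 13607 with vehicle and 39755 with IR-61, a difference of 1.06, and was under the limit with scaling by the median, quantile normalization, normexp and the deposited values. *Cd209b*, which encodes a relative of the human DC-SIGN, had a signal of 134 with vehicle and 15.4 with IR-61, where it was not well above background, and was at least 12.2-fold lower. The mannose receptor gene *Mrc1* had a difference of −0.02 and *Clec10a*, a galactose-binding receptor gene, of 0.51.

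The adaptors through which the activating receptors signal all stayed within 2-fold. *Fcer1g*, the adaptor of Mincle, Mcl and Dectin-2, had a signal of 44870 with vehicle and 46107 with IR-61 and a difference of −0.45. For *Tyrobp* the difference was −0.23, and for *Hcst* it was 0.45. *Syk* had a difference of −0.16, and *Card9*, *Bcl10* and *Malt1*, the complex that links Syk to NF-κB, had −0.07, −0.20 and −0.14. The negative values of *Fcer1g*, *Tyrobp*, *Syk* and the Card9 complex rest on the scaling, since without it they were positive. These unscaled values, from 0.04 for *Fcer1g* to 0.42 for *Card9*, all lay below the unscaled median of all genes, 0.59. After scaling, *Fcer1g* and *Tyrobp* exceeded the SD between spots of 0.0944 and the software error of 0.204. *Syk*, *Card9*, *Bcl10* and *Malt1* did not exceed their software error.

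Over all 26 adaptors and signal proteins the median was −0.15, or 0.34 without scaling. Of the 26, 1 was lower and 1 higher by 2-fold or more, beside 1.39% and 1.99% of all measured genes. Without scaling 0 were lower and 2 higher, and with normexp, with the positional trend removed or with the probes of each gene averaged 0 were higher. With scaling by the median, quantile normalization, loess or the deposited values 2 were lower. *Fgr*, a kinase of the Src family, had a signal of 2381 with vehicle and 1474 with IR-61, a difference of −1.18. *Nfatc2*, a calcium-dependent transcription factor, had a signal of 668 with vehicle and 1997 with IR-61, a difference of 1.09, and its second probe, dim on both arrays, gave 0.60. *Prkcd*, the kinase between Syk and Card9, had a difference of −0.94, and its second probe gave −0.73. The phosphatases that ITIM-bearing receptors recruit had a median of 0.20 over 4 genes and none past 2-fold, or 1 higher without scaling, from −0.14 for *Ptpn6*, which was positive without scaling, to 0.60 for *Inpp5d*.

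Other myeloid receptors that use ITAM adaptors or ITIMs had a median of −0.05 over 20 measured genes, 0.44 without scaling. None was lower and 1 was higher by 2-fold or more, beside 1.39% and 1.99% of all measured genes. In this list 2 were higher without scaling, with normexp or with the positional trend removed. The 1 gene of the scaled values was *Sirpb1a*, an activating receptor gene that signals through Tyrobp, with a signal of 3138 with vehicle and 11286 with IR-61 and a difference of 1.36. Its second probe gave 1.125, and reading of its close paralogs was not tested. The dimmest probe of *Cd300lf* gave −1.13 against 0.02 and 0.004 by its other probes, so its probes disagreed. Those of *Lilrb4a* gave −0.18 and −0.93. The Fc receptor genes differed among themselves, with 0.99 for *Fcgr1* and −0.61 for *Fcgr3*.

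Genes known to be induced through Dectin-1 or Mincle split in direction. Of 14 measured genes 7 were below and 7 above 0, beside 61.2% of all measured genes above 0. The median of the 14 was −0.02, or 0.47 without scaling. Lower by 2-fold or more were 4 of them, the cytokine genes *Il1b* and *Tnf* with differences of −3.78 and −3.24 and the chemokine genes *Cxcl2* and *Cxcl1* with −3.13 and −1.40. Higher was 1, the chemokine gene *Ccl3*, with a difference of 1.09. Over all measured genes 1.39% were lower and 1.99% higher. Without scaling 3 were lower and 2 higher. These genes also respond to many other receptors. The transcription factor Egr2 is likewise known downstream of Dectin-1, and its gene *Egr2* had a difference of 0.27.

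Some transcription factors of myeloid cells were read as single genes. *Cebpb*, which encodes a C/EBP protein known to act on *Clec4e*, had a signal of 112700 with vehicle and 129300 with IR-61, a difference of −0.29 that was positive without scaling. *Spi1*, the gene of PU.1, had a difference of −0.83, and *Cebpd*, the gene of another C/EBP protein, of −0.12, which was positive without scaling.

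**Figure D5:**
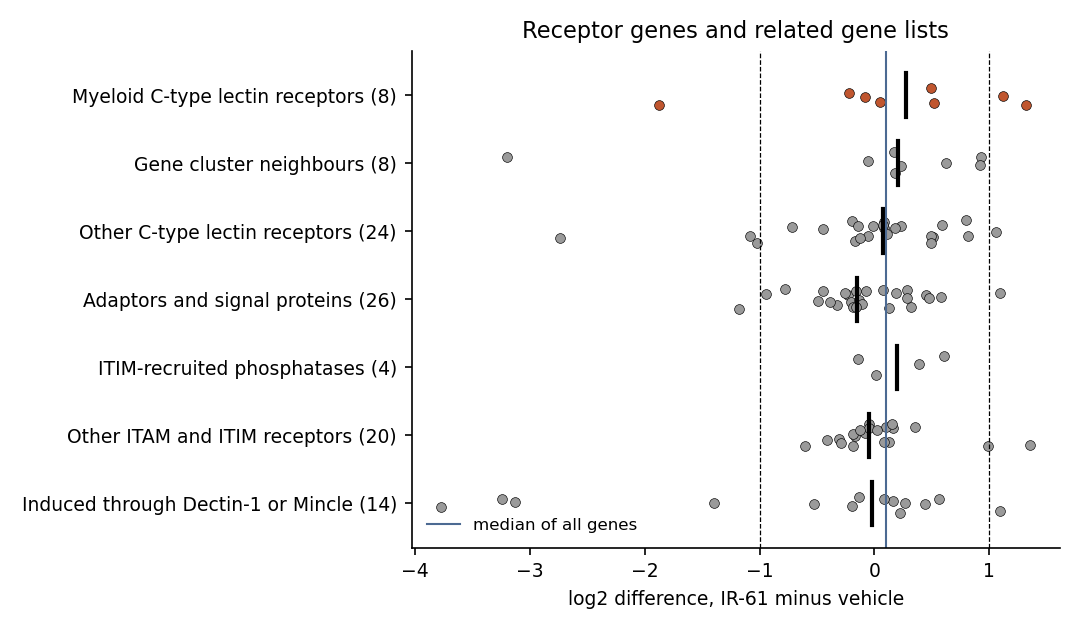
Log2 difference (IR-61 minus vehicle) of the genes of each list shown that were measured on both arrays, with their number in brackets. Points are genes, black bars the list medians, the vertical line the median of all genes at 0.10 and dashed lines the 2-fold limits; the receptor genes have a median of 0.27 and the list with *Il1b* and *Tnf* reaches −3.78.

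Markers of the labelled cell type were present. All 9 macrophage markers with a probe were well above background on both arrays, and their signals summed to 317410 with vehicle and 532140 with IR-61. Their median difference was 0.06, and it was −0.02 with scaling by the median and −0.04 when the probes of each gene were averaged. *Aif1* at 1.08 and *Adgre1*, the gene of F4/80, at 1.03 were higher by 2-fold or more, against 1.99% of all measured genes. *Clec12a* and *Clec4a1* were higher too, and 0 of the markers were lower, against 1.39%. The part of *Aif1* and *Adgre1* in the receptor values was not tested. The number higher was 1 with scaling by the median or by the 75th percentile of detected probes, and with the probes of each gene averaged. It was 3 with normexp or with the positional trend removed, and 4 without scaling. *Fcgr1*, which is in this list too, lay just under the limit at 0.99, and the lowest marker was *Lyz2*, the lysozyme gene, at −0.18. *Adgre1* was also read by a second probe, at 0.85. The probes of *Csf1r* gave 0.06, −0.64 and −0.12, and those of *Itgam* 0.65, 0.12 and 0.41.

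Markers of other cell types gave signals too. All 6 fibroblast markers were well above background, with summed signals of 64869 (vehicle) and 110410 (IR-61), and none passed 2-fold, from −0.34 for *Col3a1* to 0.62 for *Col1a1*. Of 5 measured B cell markers 2 were lower by 2-fold or more, *Ms4a1* at −1.46 and *Cd79b* at −1.09, against 1.39% of all measured genes. Without scaling 0 of them were lower and with normexp 1 was, and the summed signals of the list were 907 and 746. The highest B cell marker was *Pax5* at 0.36. None of 5 T cell, 6 neutrophil, 5 dendritic cell and 3 epithelial markers measured on both arrays passed 2-fold. T cell markers ran from −0.41 for *Cd3d* to 0.16 for *Cd8a*, neutrophil markers from −0.42 for *Ltf* to 0.64 for *Mpo*, dendritic cell markers from −0.58 for *Zbtb46* to 0.80 for *Cd209a*, and epithelial markers from −0.89 for *Krt19* to −0.41 for *Krt8*. The second probes of *Cd8a* and *Cd209a*, both dim, gave 0.48 and −0.07. Without scaling 2 neutrophil, 1 dendritic cell and 1 fibroblast marker were higher by 2-fold or more. The summed signals with vehicle and with IR-61 were 2440 and 3529 for T cell, 12201 and 20491 for neutrophil, 50281 and 63080 for dendritic cell, and 401 and 373 for epithelial markers. Nearly all of the dendritic cell sum came from *Siglech*, at 49725 and 62195, and *Clec9a*, another marker of that list, had the bound of at least 2.53-fold higher given above. Neither array had *Cd3g*, *Xcr1*, *Epcam* or *Cdh1* well above background. Both samples are labelled RAW264.7, a single cell line, so these lists are not read as counts of cell types. Where the signals of these markers come from was not tested.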

How the data were processed

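One culture per condition was measured. Per the file headers, the authors read the arrays with Agilent Feature Extraction 11.0.1.1, while the submitters' processing notes name 11.0.0.1 and the methods an earlier version. The deposited intensity of each spot was already background-subtracted and detrended within the array. The authors also deposited log2 values per probe, whose columns share their quartiles, 4.586 and 10.66, as after quantile normalization, and follow the log2 intensities with r of 0.9995 and 0.9988 across probes. How they were scaled is not given in the sources used here. Flags (0 or 1) for outlier spots, saturation and signal well above background were deposited too.

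Of 44397 spots per array, 43020 were not controls. Outlier spots (124 for vehicle, 139 for IR-61) were left out, and 0 spots were saturated. Log2 signals were averaged over the spots of a probe and reduced by the 75th percentile of the array. Of 39419 probes, 27224 were named by accession through a RefSeq table of GRCm38.p6, used for names and gene order only because the array design is on mm9. A gene took its brightest unsaturated probe, and 5473 genes had several. A probe counted as well above background when more of its spots used carried that flag than did not. Where this held on 1 array only, a bound is given, taken against the dim probe's signal or the array's lowest signal well above background, whichever was higher. The number of arrays limits the precision. The call was a 2-fold difference, without a test.

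The members and lists were chosen with earlier results of these data known. Of the transcription factors listed, 1 is not reported here, so no summary of that list is given. Of each list other than the receptor genes, genes past 2-fold and the extremes were named, and the adaptors, clusters and some further genes were added after their values were seen. The alternatives were other scalings, the deposited log2 values, normexp (offset 50, on the median signal, in which 4 IR-61 spots with background above signal took the median background), outlier spots kept, a positional trend removed, the mean over probes, other filters, probes in place of genes and a limit of 3-fold. The steps were tested on simulated data. Python 3.11.15 (numpy 2.4.6, pandas 2.3.3, statsmodels 0.14.6, matplotlib 3.10.9) and R 4.3.3 (limma 3.58.1) were used.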

Additional observations from a re-analysis of the deposited data

How the results depend on the processing

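No paired analysis was possible because vehicle and IR-61 are represented by a single array each, which leaves no test to block. Of the 12 alternatives run on single genes, none turned the direction of *Clec4e*, *Clec4a1* or *Clec12a* or took them within 2-fold. The mean over probes and the other filters could not do so, since each of these genes had 1 probe. The receptor genes lower by 2-fold or more were 1 throughout, also with the 3-fold limit. Without scaling, the median of the receptor genes moved from 0.27 to 0.76 as that of all genes moved from 0.10 to 0.59, and 2156 genes were higher and 72 lower, against 336 and 235. With the 3-fold limit 0 receptor genes were higher, and over the array 50 genes were higher and 64 lower. Normexp gave 124 higher and 149 lower, no filter on dim probes 921 and 440, probes in place of genes 612 and 451, and a filter at 4 times the lowest signal 199 higher. Of the genes past 2-fold, 41.2% were lower in the values reported, 54.2% with scaling by the median, 52.1% with quantile normalization, 52.2% with loess, 51.4% with the deposited log2 values, 54.6% with normexp and 3.23% without scaling. The limits of these data are the single array per condition, the single spot per receptor gene and the dim signals of *Clec5a* and *Clec4a2*, whose differences lie within the spread between spots.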
